A study of Homo sapiens with 8 samples.

Results

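HepaRG cells exposed to 0.1 µM tunicamycin were compared with HepaRG cells that received only the vehicle, dimethyl sulfoxide (DMSO), in a single-cell RNA-seq experiment made with the Parse Evercode split-pool method. Cells were chosen by the treatment name in the deposited cell table, with at least 500 genes and at most 20% of their unique molecular identifiers (UMIs, 1 per captured RNA molecule) from mitochondrially encoded genes. This left 308 of 574 tunicamycin 0.1 µM cells in 2 cultures, runs 3 and 4 of the sample names, of 12976 cells in the whole table, 8406 of which passed the same filter. The reference was 781 DMSO cells in 4 cultures, runs 3 to 6. Tunicamycin at 0.001 µM gave 1640 cells and at 0.01 µM 329 cells, each in 2 cultures of runs 3 and 4, for the dose trend.

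HepaRG is a human hepatic line, here supplied terminally differentiated and grown on collagen, and the labels call its cells hepatocytes. The paper describes the cultures of its main experiment, made with the TempO-LINC method, as hepatocyte-like islands among cholangiocyte-like cells. It found no clearly distinct cholangiocyte group there. Every group was exposed for 24 h in 0.1% DMSO, and every group was dissociated in a buffer with the transcription inhibitor actinomycin D and the translation inhibitor anisomycin. All cultures come from a single cell line, so no donor variation is sampled. The run numbers are explained nowhere in the labels or the paper. For its main TempO-LINC experiment, the paper says that cultures were not replicated within a condition. Its supplement describes a rotenone exposure for the Parse experiment and does not mention tunicamycin there. Whether the runs used here are independent cultures is therefore not known. The p-values measure only the spread between these samples, which may be technical. UMIs were summed per culture and given as CPM, the UMIs of a gene in 1000000 of the culture's UMIs, a unit without correction for gene length. In such sums, fewer cells of a type and less RNA per cell cannot be told apart.

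Tunicamycin blocks DPAGT1, the enzyme that starts the lipid-linked sugar chain later transferred to asparagines of proteins entering the endoplasmic reticulum (ER). Proteins that lack this N-glycan fold poorly, and unfolded proteins in the ER engage 3 membrane sensors: ATF6 and IRE1 (gene ERN1), which raise ER chaperones and degradation factors, IRE1 through splicing of XBP1 mRNA, and PERK (gene EIF2AK3). PERK phosphorylates the initiation factor eIF2α, which slows translation but favours that of ATF4, a transcription factor that raises amino acid transporters, amino acid synthesis enzymes and aminoacyl-tRNA synthetases. This arm is shared with other stresses and is called the integrated stress response. Hepatocytes are a secretory cell type whose ER makes most plasma proteins and holds cytochrome P450 enzymes.

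The promoters of some of these genes carry short motifs known for the 2 programmes, and 7 are shown because their genes are among those whose levels are given below. Each window runs from 250 bases before to 50 bases after the transcription start, written 5′ to 3′ along the gene's strand, from RefSeq on GRCh38.p14. Capitals mark matches on either strand to the ER stress element ERSE (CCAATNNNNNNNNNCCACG, known for ATF6 with NF-Y), ERSE-II (ATTGGNCCACG), the unfolded protein response element UPRE (TGACGTGG, known for XBP1) or the amino acid response element CARE (TGATGNAA, known for ATF4). HSPA5 (chr9:125241294-125241593, minus strand) had 1 ERSE match and HSP90B1 (chr12:103930160-103930459, plus strand) had 2. HYOU1 (chr11:119057156-119057455, minus strand) had 2 ERSE-II matches, 1 of which overlaps its UPRE match. HERPUD1 (chr16:56931892-56932191, plus strand) had an ERSE-II and a CARE match. ASNS (chr7:97872359-97872658, minus strand), AARS1 (chr16:70289457-70289756, minus strand) and MARS1 (chr12:57487818-57488117, plus strand) had a CARE match each.
HSPA5: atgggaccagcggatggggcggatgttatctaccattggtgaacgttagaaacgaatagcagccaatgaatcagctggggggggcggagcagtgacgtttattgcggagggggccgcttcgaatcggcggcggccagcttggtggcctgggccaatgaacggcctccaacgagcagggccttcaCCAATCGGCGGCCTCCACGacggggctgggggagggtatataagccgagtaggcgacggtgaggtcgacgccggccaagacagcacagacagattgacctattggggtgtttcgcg
HSP90B1: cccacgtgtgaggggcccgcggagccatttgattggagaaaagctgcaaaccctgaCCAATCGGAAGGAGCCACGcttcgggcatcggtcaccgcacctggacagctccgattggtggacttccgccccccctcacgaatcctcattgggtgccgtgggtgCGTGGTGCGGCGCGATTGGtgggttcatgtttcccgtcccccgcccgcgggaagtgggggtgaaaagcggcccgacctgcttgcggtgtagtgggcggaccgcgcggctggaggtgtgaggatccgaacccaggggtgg
HYOU1: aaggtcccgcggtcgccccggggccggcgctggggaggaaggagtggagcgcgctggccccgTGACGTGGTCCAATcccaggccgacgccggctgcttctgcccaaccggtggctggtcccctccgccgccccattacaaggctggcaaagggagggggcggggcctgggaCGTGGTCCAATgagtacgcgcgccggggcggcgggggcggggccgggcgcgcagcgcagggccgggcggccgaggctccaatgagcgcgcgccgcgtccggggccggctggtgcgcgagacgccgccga
HERPUD1: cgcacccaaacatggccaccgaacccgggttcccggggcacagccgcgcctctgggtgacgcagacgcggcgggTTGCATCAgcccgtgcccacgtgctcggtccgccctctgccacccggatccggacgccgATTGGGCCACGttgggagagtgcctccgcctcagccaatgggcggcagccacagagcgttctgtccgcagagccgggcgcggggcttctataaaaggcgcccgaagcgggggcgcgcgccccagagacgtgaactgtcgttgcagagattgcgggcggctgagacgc
ASNS: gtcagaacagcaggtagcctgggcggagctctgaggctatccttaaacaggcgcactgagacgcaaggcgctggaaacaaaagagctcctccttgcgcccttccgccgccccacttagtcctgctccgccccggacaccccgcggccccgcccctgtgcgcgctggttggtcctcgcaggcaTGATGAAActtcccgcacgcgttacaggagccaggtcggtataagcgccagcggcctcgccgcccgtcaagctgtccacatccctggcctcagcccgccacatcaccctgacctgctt
AARS1: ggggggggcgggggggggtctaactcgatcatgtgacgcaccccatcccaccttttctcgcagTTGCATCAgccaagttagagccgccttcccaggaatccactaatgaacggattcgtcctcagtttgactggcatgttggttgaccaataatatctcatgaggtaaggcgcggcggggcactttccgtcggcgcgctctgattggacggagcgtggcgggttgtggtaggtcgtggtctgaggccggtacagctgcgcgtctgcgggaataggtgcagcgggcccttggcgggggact
MARS1: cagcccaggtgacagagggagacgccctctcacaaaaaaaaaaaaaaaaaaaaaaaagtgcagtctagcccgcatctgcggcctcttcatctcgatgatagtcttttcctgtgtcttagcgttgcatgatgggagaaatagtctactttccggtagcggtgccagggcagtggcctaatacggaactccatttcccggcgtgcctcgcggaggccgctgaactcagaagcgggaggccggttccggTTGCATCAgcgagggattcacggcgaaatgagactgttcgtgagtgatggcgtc

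Over the 27305 genes with a promoter window, an ERSE match was found for 0.0916%, an ERSE-II match for 0.0696%, a UPRE match for 0.927% and a CARE match for 4.46%. Of the 30 ER chaperones and folding enzymes listed here, 27 had a window, and 7 of these (25.9%) held ERSE, 2 held ERSE-II, 4 held UPRE and 0 held CARE. CARE was found in 7 of the 24 integrated stress response genes with a window (29.2%) and in 7 of the 16 cytosolic aminoacyl-tRNA synthetases with a window (43.8%), and neither list held an ERSE match. These matches describe letters in the windows and say nothing of factor binding in these cells.

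The 2 tunicamycin 0.1 µM cultures gave 6625717 and 7725081 UMIs from 122 and 186 cells, against 12552536, 3417334, 33404488 and 4819220 UMIs from 250, 127, 311 and 93 DMSO cells of runs 3, 4, 5 and 6. The run 3 tunicamycin culture stood apart, since only 32.2% of its 379 cells passed the filter (median mitochondrial share 23.1% before it), against 95.4% of 195 cells in run 4 (8.03%) and 79.1% to 99.2% in the DMSO cultures (2.47% to 16.1%). Among these, DMSO run 4 was at 2.47%, against 12.6% to 16.1% in DMSO runs 3, 5 and 6. Its cells used also had the lowest median UMIs, 17080 against 29790 to 79381. Every within-run difference given for run 4 rests on this culture. Cell barcodes shared between cells numbered 0. The hepatocyte markers ALB (5629 and 7457 CPM with tunicamycin, 5048 to 16059 CPM with DMSO) and APOB were high in every culture. The summed level of the 8 hepatocyte markers was 10478 and 13329 CPM against 9949 to 23878 CPM. Of the macrophage and endothelial markers, 3 of 8 each had enough UMIs to test, VSIG4 and CLEC4G were at 0 in every culture, and the summed levels were 17.96 and 32.5 CPM against 14.4 to 36.3 CPM and 59.2 and 79.6 CPM against 56.8 to 100.5 CPM. The 9 stellate or fibroblast markers summed to 200.6 and 112.6 CPM against 124 to 244.5 CPM, with COL1A2 at 0 throughout, and the 8 cholangiocyte markers to 103.1 and 150.8 CPM against 111.8 to 175.8 CPM. The 20 cell cycle genes summed to 1577 CPM in run 3 and 354 CPM in run 4 with tunicamycin, against 1223, 216.5, 379.6 and 214.3 CPM with DMSO, so both run 3 cultures stood above the rest.

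Only 1 gene passed the test at 0.1 µM, the long non-coding RNA ENSG00000223786. It had 105 and 151 CPM with tunicamycin (693 and 1165 UMIs), against 13.6, 22.2, 16.7 and 10.6 CPM with DMSO (171, 76, 558 and 51 UMIs). Both tunicamycin cultures lay far above all 4 DMSO cultures, with means of 127.7 ± 32.7 CPM (SD, n = 2) and 15.8 ± 4.97 CPM (SD, n = 4). It rose 8.18-fold (log2 3.03, SE 0.25, adjusted p = 0.00206, edgeR quasi-likelihood test with Benjamini-Hochberg adjustment), and by 2.77 and 2.66 on the log2 scale over the DMSO culture of run 3 and run 4. At the lower doses it lay between 20.8 and 22.2 CPM in all 4 cultures, within the DMSO range. The gene spans 621 kb of chromosome 6 (chr6:74069451-74690727, plus strand, GENCODE 44 on GRCh38), and no function is given for it in the annotation used here. GENCODE 44 places 4 other genes within or across its span, among them the minus-strand lncRNA ENSG00000272243 at 2.57 and 6.34 CPM with tunicamycin, against 2.55, 1.17, 1.89 and 0.21 CPM with DMSO. How reads were assigned between overlapping genes is not given in the sources used here.

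This single call was 0.00538% of 18577 genes tested, while 328 genes were higher and 348 lower at an unadjusted p under 0.05. DESeq2 called 27 genes (0.145% of those tested), 19 higher and 8 lower. It gave no adjusted p for 3966 of the 18577 genes, which it could therefore not call. With 2 cultures against 4, the levels themselves were therefore also read by whether the groups overlap: both tunicamycin cultures lay above every DMSO culture for 914 genes (4.92%) and below every DMSO culture for 1174 genes (6.32%). Relative to the DMSO culture of the same run, 26.2% of genes were higher in both runs and 32.4% were lower in both runs. The median log2 fold change over all genes tested was -0.02. Members of each gene list below are read against these shares. None but ENSG00000223786 passed the edgeR test.

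**Figure D1:**
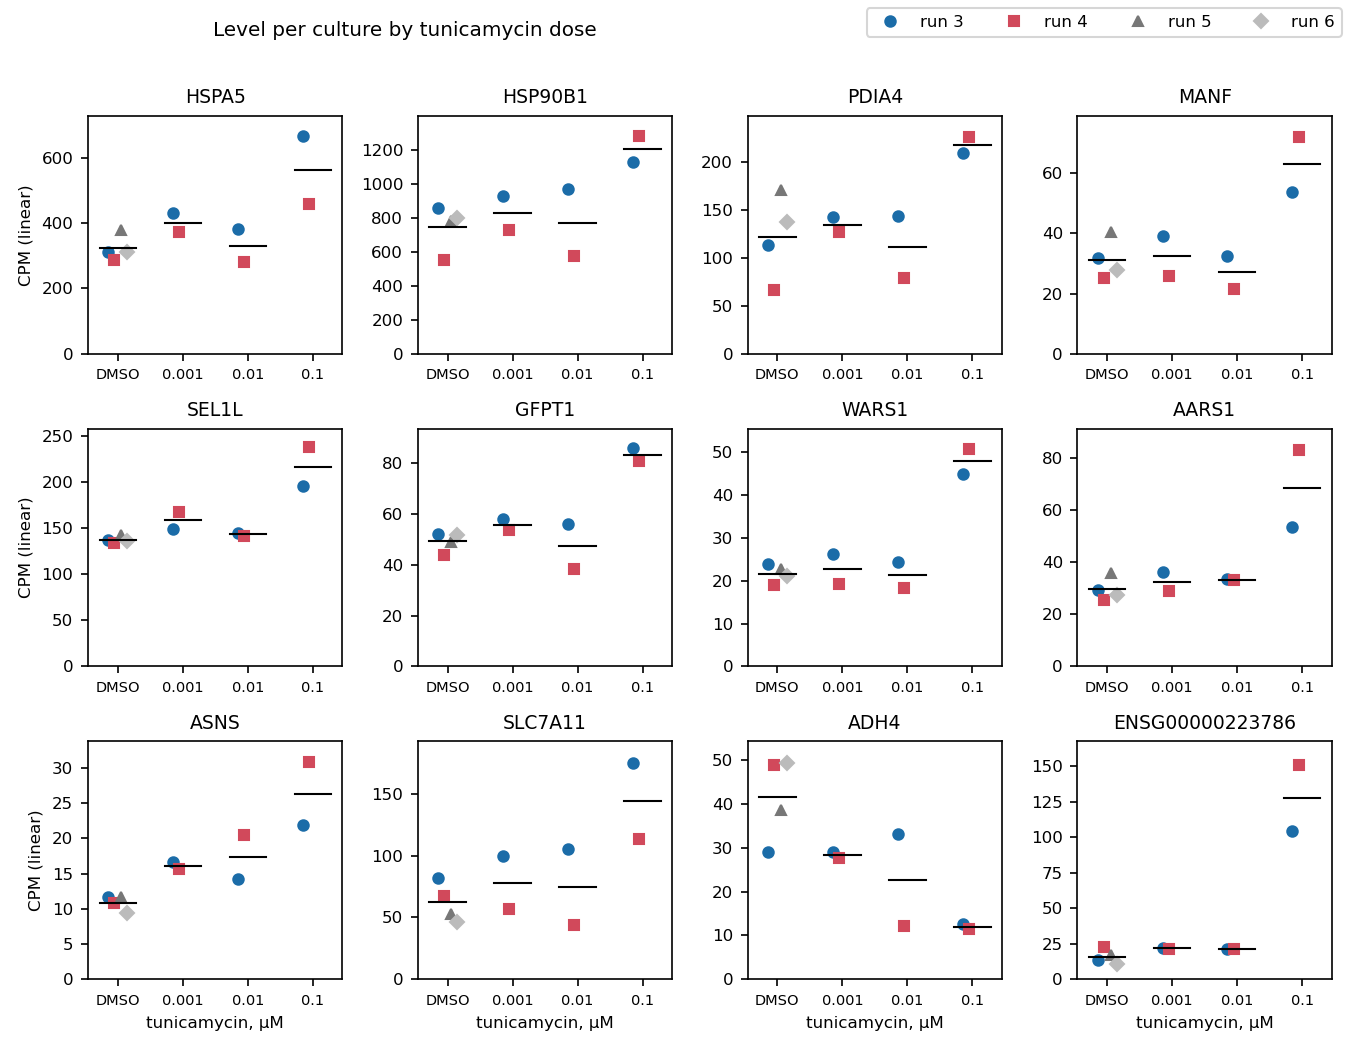
Level of 12 genes in each culture (CPM, linear axis) for DMSO and for 0.001, 0.01 and 0.1 µM tunicamycin, with the run shown by marker and colour and the group mean as a line. The 2 cultures at 0.1 µM lie above all 4 DMSO cultures for every gene shown except ADH4, where they lie below, and ENSG00000223786 stays at 20.8 to 22.2 CPM at both lower doses.

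ER chaperones and folding enzymes lay mostly above their DMSO levels, without a single member past the edgeR test, which was fitted without run as a term (15 at an unadjusted p under 0.05, all higher). Of 30 members, all tested, 14 (46.7%) lay above every DMSO culture in both tunicamycin cultures and 0 lay below, and the median log2 fold change was 0.44. In 24 members the tunicamycin culture was higher than the same-run DMSO culture in both runs, and the median differences were 0.31 in run 3 and 0.76 in run 4. The summed level of the list was 5125 and 5772 CPM with tunicamycin, against 3854, 3212, 4184 and 3974 CPM with DMSO. Without the cell filter, 13 members lay above every DMSO culture and 0 below, where all genes gave 3.27% and 7.93%. The list included 2 genes that DESeq2 called, MANF and DNAJB9 (adjusted p = 0.0476 and 0.0493).

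HSPA5, the ER Hsp70 chaperone BiP that holds the sensors inactive, had 668 and 458 CPM with tunicamycin, against 313, 288, 378 and 313 CPM with DMSO. The groups did not overlap, and the run 3 tunicamycin culture was the highest (log2 0.80, SE 0.20, adjusted p = 0.721 by edgeR). HSP90B1, the ER Hsp90 GRP94, had 1129 and 1283 CPM against 855, 553, 780 and 798 CPM (log2 0.69). HYOU1, the ER Hsp110 that exchanges the nucleotide of BiP, had 145 and 156 CPM against 92.4, 59.1, 113 and 51.9 CPM. Relative to their mean, its DMSO values spread more widely than those of HSPA5 (log2 0.91, SE 0.27). HSPA13, another ER-linked Hsp70 protein, had 28.2 and 23.2 CPM against 14.02, 12.3, 12.3 and 13.1 CPM, about 1.98-fold.

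MANF, a secreted ER protein that binds BiP, had 53.9 and 72.1 CPM with tunicamycin, against 31.9, 25.2, 40.5 and 27.8 CPM with DMSO (log2 0.99, SE 0.22, adjusted p = 0.573 by edgeR). The BiP cochaperone DNAJB9 had 70.6 and 111 CPM against 51.9, 50.9, 53.2 and 45.4 CPM (log2 0.85, SE 0.19). Both DNAJB9 values stood outside a narrow DMSO range, with run 4 the higher. DNAJC3, which also inhibits PERK, had 174 and 201 CPM against 137, 125, 142 and 147 CPM. Among the disulfide isomerases, PDIA4 had 209 and 226 CPM against 113, 66.7, 170 and 137 CPM, and PDIA6 had 255 and 264 CPM against 170, 121, 175 and 219 CPM. The lectin chaperone CALR overlapped, at 296 and 365 CPM against 200, 130, 319 and 235 CPM, since DMSO run 5 exceeded tunicamycin run 3. CRELD2, an ER stress-inducible secreted protein, overlapped for the same reason, at 40.4 and 50.6 CPM against 29.9, 20.5, 41.1 and 21.6 CPM.

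In the middle of the cell distribution, tunicamycin run 4 stood clear of every DMSO culture, while tunicamycin run 3 lay close to DMSO run 5. The chaperone list made up a median of 0.411% and 0.491% of a cell's UMIs with tunicamycin (122 and 186 cells), against 0.354%, 0.276%, 0.386% and 0.375% with DMSO. The median of the DMSO cells was exceeded by 59.8% and 71.5% of tunicamycin cells, against 48.8%, 28.3%, 57.9% and 55.9% of DMSO cells. The upper quartile of the DMSO cells was exceeded by 37.7% and 53.8% of tunicamycin cells, against 22%, 14.2%, 29.9% and 31.2% of DMSO cells. After thinning each cell to 5000 UMIs, HSPA5 was above 2 times its DMSO mean in 27.0% and 21.0% of tunicamycin cells, against 11.2%, 8.66%, 20.3% and 5.38% of DMSO cells. The run 4 tunicamycin culture and DMSO run 5 were thus nearly level, and without thinning the shares were 25.4% and 19.4% against 5.60%, 7.87%, 11.3% and 4.30%. For HSP90B1 the thinned shares were 23.8% and 31.2% against 13.2%, 7.09%, 12.2% and 11.8% (unthinned 22.1% and 27.96% against 10.4%, 3.94%, 9.00% and 8.60%). CALR overlapped, at 16.4% and 25.8% against 8.40%, 4.72%, 27.0% and 11.8% (unthinned 13.9% and 20.4% against 2.80%, 3.15%, 12.9% and 6.45%). Free RNA can put UMIs of such abundant genes into any cell, and no cell type lacking them was present to measure it.

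**Figure D2:**
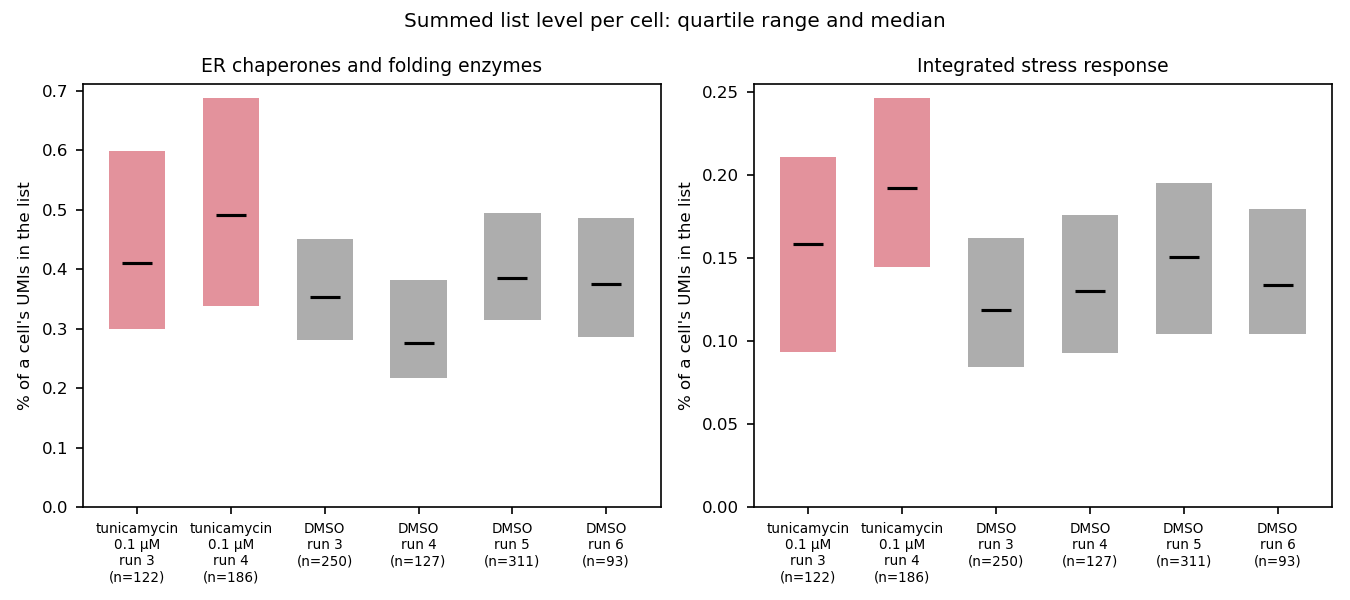
Percentage of a cell's UMIs that fell on the ER chaperone list and on the integrated stress response list, per culture (bar, quartile range over cells, with the median as a dash), tunicamycin 0.1 µM at the left and DMSO at the right. The chaperone medians are 0.411% and 0.491% against 0.276% to 0.386%, and the quartile ranges of all cultures overlap.

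Genes of ER-associated degradation, which returns misfolded proteins to the proteasome, lay above every DMSO culture for 9 of 26 members tested (34.6%), with 0 below and a median log2 fold change of 0.15. SEL1L, the partner of the ligase SYVN1, had 195 and 238 CPM with tunicamycin, against 137, 133, 142 and 136 CPM with DMSO (log2 0.66, SE 0.15, adjusted p = 0.592 by edgeR). The 4 DMSO cultures lay close together and both tunicamycin cultures well outside. HERPUD1, whose promoter is printed above, had 139 and 178 CPM against 86.9, 98.9, 136 and 103 CPM. DERL2 of the retrotranslocation machinery had 26.0 and 25.0 CPM against 16.3, 15.5, 18.1 and 18.3 CPM, and SELENOS 31.2 and 42.8 CPM against 28.04, 26.0, 27.6 and 28.2 CPM. SYVN1 itself overlapped, and the sign of its difference depended on which culture entered. DERL3 had 0 UMIs in the 6 cultures and was not tested.

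Of 11 tested sensors and transcription factors of the unfolded protein response, 3 (27.3%) lay above every DMSO culture and 0 below (median log2 0.31). The IRE1 gene ERN1 had 61.9 and 81.8 CPM with tunicamycin, against 53.5, 55.3, 55.8 and 50.4 CPM with DMSO. ATF6 had 190 and 194 CPM against 168, 165, 137 and 144 CPM, and CREB3L2, an ER-bound relative of ATF6, 139 and 128 CPM against 103, 104, 124 and 97.9 CPM. The PERK gene EIF2AK3 overlapped, at 129 and 168 CPM against 101, 130, 106 and 114 CPM. XBP1 also overlapped, at 65.7 and 105 CPM against 59.1, 60.3, 77.3 and 75.1 CPM, and gene sums do not separate its spliced from its unspliced form. None of the 6 tested targets of IRE1-dependent RNA decay lay outside the DMSO range (median log2 -0.12).

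In the pathway that tunicamycin inhibits, 4 of 28 genes of lipid-linked glycan assembly lay above every DMSO culture and 1 below. DPAGT1 had 8.75 and 11.9 CPM with tunicamycin, against 8.05, 3.804, 10.4 and 5.81 CPM with DMSO, with overlapping groups (log2 0.49, SE 0.36). GFPT1, which starts hexosamine synthesis and so supplies UDP-GlcNAc, stood clear at 86.0 and 80.9 CPM against 52.3, 43.9, 49.2 and 51.9 CPM (log2 0.76, SE 0.16, adjusted p = 0.545 by edgeR). PGM3 of the same route had 54.8 and 65.9 CPM against 40.7, 49.5, 38.5 and 46.5 CPM. Oligosaccharyltransferase subunits and glycan-trimming enzymes had 1 of 20 members above and 1 below. The translocon and signal peptidase had 3 of 21 above and 0 below, with the channel subunit SEC61A1 at 116 and 107 CPM against 70.0, 57.9, 95.2 and 69.9 CPM. For ER-Golgi transport, 6 of 30 lay above and 1 below, among them the COPII coat genes SEC23B (47.8 and 55.9 CPM against 36.6, 34.2, 43.3 and 33.0 CPM) and SEC24D.

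Genes of the integrated stress response likewise lay mostly above their DMSO levels, with 0 past the same test (14 at an unadjusted p under 0.05, all higher). Of 27 members tested, 14 (51.9%) lay above every DMSO culture and 0 below, the median log2 fold change was 0.59, and 22 were higher than the same-run DMSO culture in both runs (medians 0.45 and 0.81). CHAC1, FGF21 and VLDLR had too few UMIs to test. DESeq2 called ASNS, SLC7A1, SLC7A11 and TRIB3. Without the cell filter, 11 lay above and 0 below. The list's summed level was 1781 and 1994 CPM with tunicamycin, against 1292, 1426, 1552 and 1429 CPM with DMSO.

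ATF4, the transcription factor of this response, had 65.4 and 76.2 CPM with tunicamycin, against 51.0, 39.2, 65.1 and 54.4 CPM with DMSO, so its run 3 value only just exceeded DMSO run 5. DDIT3, the pro-apoptotic factor CHOP, overlapped at 118 and 166 CPM against 77.9, 89.8, 118 and 82.0 CPM. Amino acid genes stood further apart. ASNS, which makes asparagine, had 21.9 and 30.8 CPM against 11.6, 10.8, 11.6 and 9.34 CPM (log2 1.27, SE 0.23, adjusted p = 0.44 by edgeR and 0.00433 by DESeq2). The cystine transporter SLC7A11 had 175 and 114 CPM against 82.4, 67.3, 52.96 and 46.1 CPM (log2 1.21, SE 0.24), and it is also a target of NRF2. The arginine and lysine transporter SLC7A1 had 41.4 and 47.6 CPM against 23.3, 22.8, 20.3 and 22.8 CPM, with both tunicamycin cultures well clear of the DMSO range (log2 1.00, SE 0.18, adjusted p = 0.44 by edgeR). PSAT1 of serine synthesis had 48.3 and 33.8 CPM against 20.5, 20.8, 20.7 and 26.4 CPM. TRIB3, a pseudokinase that restrains ATF4 and CHOP, had 15.7 and 15.3 CPM against 6.21, 7.90, 7.48 and 4.15 CPM.

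PPP1R15A, the eIF2α phosphatase subunit that restores translation, had 80.3 and 80.5 CPM with tunicamycin, against 48.5, 33.9, 69.7 and 59.1 CPM with DMSO. The secreted stress hormone GDF15 had 80.4 and 133 CPM against 68.3, 77.2, 73.1 and 79.3 CPM, and its run 3 value nearly met DMSO run 6. SESN2, CEBPG, DDIT4, SLC3A2, PHGDH and SLC7A5 were the other members above every DMSO culture. Per cell, the list took a median of 0.159% and 0.192% of UMIs, against 0.119%, 0.130%, 0.150% and 0.134% with DMSO. The run 3 tunicamycin median was close to that of DMSO run 5. The upper quartile of the DMSO cells was exceeded by 38.5% and 56.5% of tunicamycin cells, against 17.6%, 22.05%, 32.5% and 23.7% of DMSO cells.

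Cytosolic aminoacyl-tRNA synthetases, which load amino acids onto tRNAs, lay above every DMSO culture for 9 of 20 members (45%) and below for 1, HARS1 (28.2 and 27.3 CPM against 29.6, 38.04, 30.8 and 30.9 CPM). The median log2 fold change was 0.23, with 14 members higher in both runs. The members above were the enzymes for alanine, tryptophan, tyrosine, methionine, glycine, isoleucine, serine and threonine and the fused enzyme for glutamate and proline. The largest differences were those of AARS1 (53.4 and 83.2 CPM with tunicamycin, against 29.5, 25.5, 35.9 and 27.4 CPM with DMSO, log2 1.20, SE 0.21) and WARS1 (45.0 and 50.7 CPM against 23.9, 19.0, 22.6 and 21.2 CPM, log2 1.13, SE 0.18). Their adjusted p was 0.44 and 0.378 by edgeR and 0.00322 and 0.00197 by DESeq2. YARS1 had 61.9 and 86.9 CPM against 38.4, 43.9, 37.6 and 38.4 CPM, GARS1 105 and 125 CPM against 68.0, 74.3, 58.4 and 66.2 CPM, and MARS1 46.8 and 60.2 CPM against 29.2, 29.6, 29.4 and 32.4 CPM. DESeq2 called all 5 of these genes. XPOT, the exporter of tRNA from the nucleus, was no list member and had 64.4 and 66.3 CPM against 32.7, 31.0, 27.5 and 36.9 CPM (log2 1.04, SE 0.17, adjusted p = 0.44 by edgeR).

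**Figure D3:**
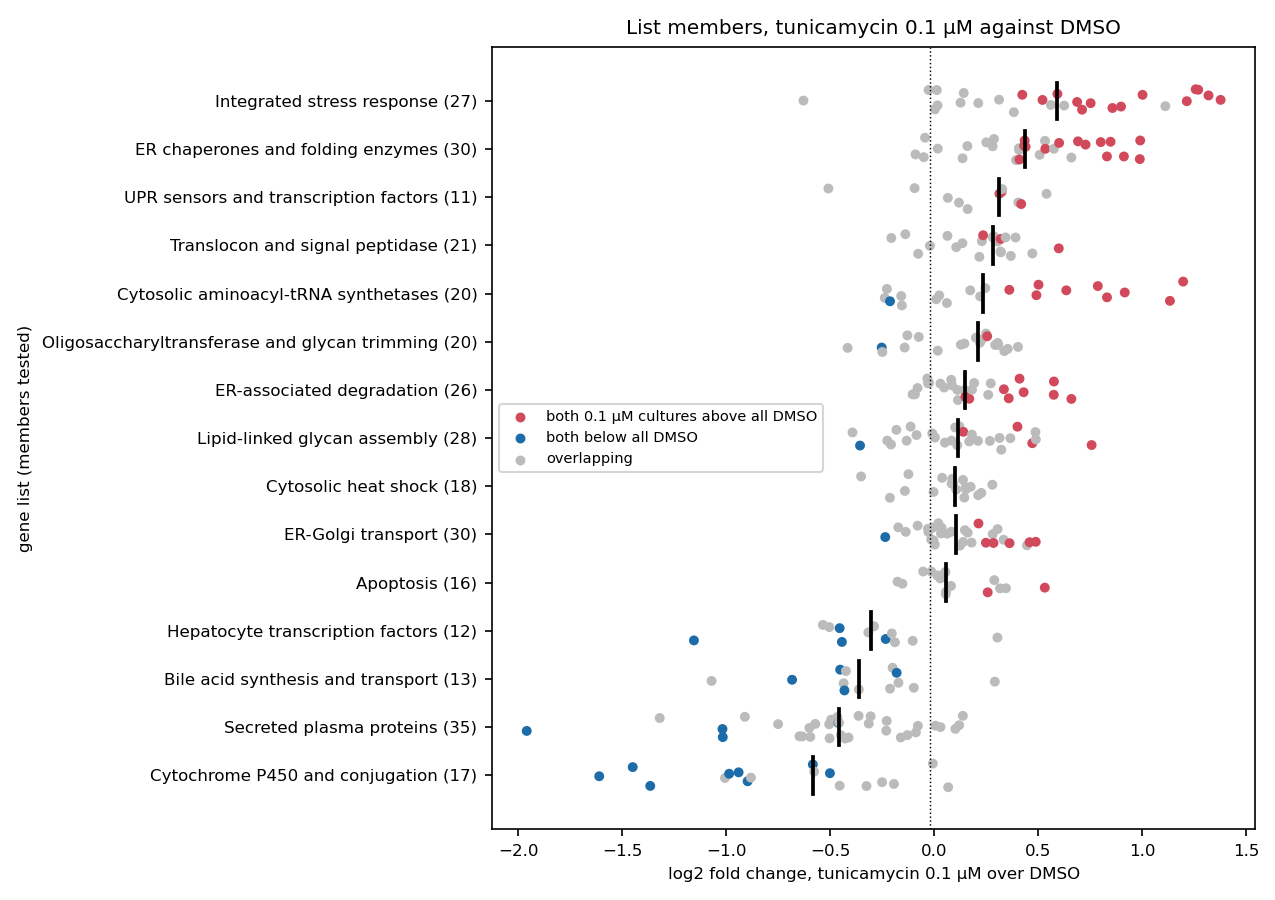
Log2 fold change (tunicamycin 0.1 µM over DMSO) of each tested member of 15 gene lists, with the list median as a bar and the all-gene median of -0.02 as a dotted line. Red points are members with both tunicamycin cultures above all DMSO cultures, blue points are members with both below, and grey points overlap. Red points make up 14 of 27 integrated stress response genes and 14 of 30 chaperones, and blue points 8 of 17 cytochrome P450 and conjugation genes.

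Members with and without a motif match in the printed window length were set side by side, as a description. Of 9 chaperones with an ERSE or ERSE-II match, 5 lay above every DMSO culture (median log2 0.66), against 8 of 18 without (0.42). MANF, PDIA4, DNAJB9 and HSPA13 were among those without a match. Of 7 tested synthetases with a CARE match, 5 lay above (median log2 0.63), against 3 above and 1 below of 9 without (0.06), WARS1 being the member without a match that stood furthest apart. In the integrated stress response list, 4 of 5 tested members with CARE lay above (0.86), against 9 of 16 without (0.61).

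**Figure D4:**
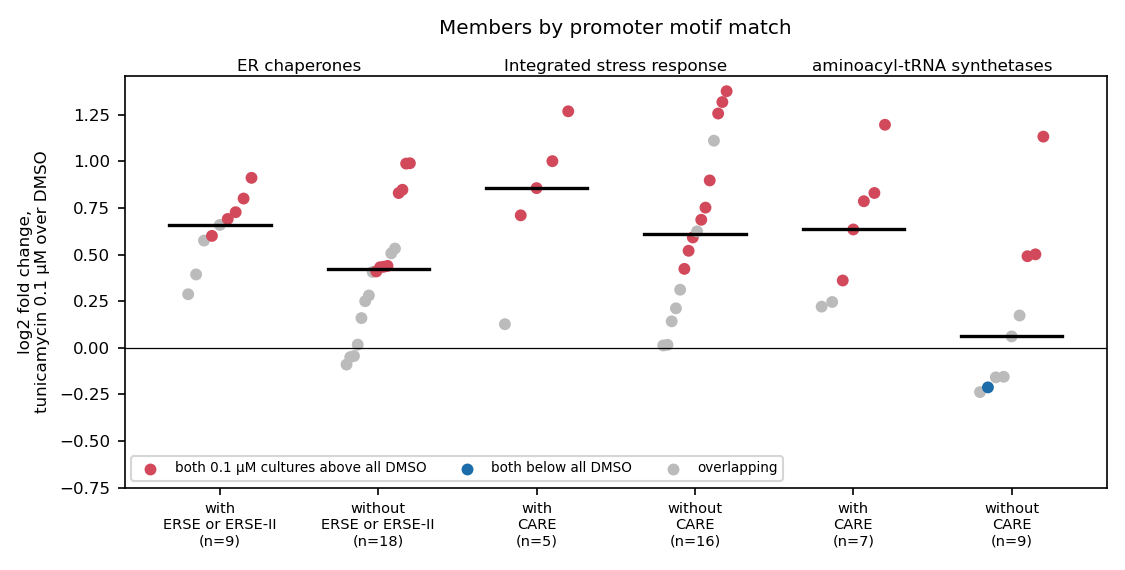
Log2 fold change (tunicamycin 0.1 µM over DMSO) of list members with and without a promoter match to ERSE or ERSE-II (chaperones) or CARE (integrated stress response and synthetases), each point a gene and each line the median. Points are red where both tunicamycin cultures lie above all DMSO cultures and blue where both lie below. Medians are 0.66 and 0.42 for chaperones, 0.86 and 0.61 for the stress response list and 0.63 and 0.06 for the synthetases, with the ranges of members overlapping in each pair.

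Hepatocyte metabolic genes lay on the other side. Of 17 tested cytochrome P450 and conjugation genes, 8 (47.1%) lay below every DMSO culture and 0 above, with a median log2 fold change of -0.58, and 12 were lower than the same-run DMSO culture in both runs (medians -0.51 and -0.20). CYP3A4, the main drug-metabolising cytochrome of liver, had 14.8 and 11.4 CPM with tunicamycin, against 27.5, 20.5, 34.1 and 60.8 CPM with DMSO. CYP2C8 had 41.8 and 37.9 CPM against 57.0, 55.0, 102 and 100.4 CPM, and CYP2B6 1.66 and 6.34 CPM against 12.3, 12.3, 14.01 and 10.8 CPM. DMSO runs 5 and 6 were higher than runs 3 and 4 for CYP3A4, CYP2C8 and several other hepatocyte genes. Tunicamycin was not run there, so the within-run differences are the closer comparison. Those of run 4 rest on DMSO run 4, the culture with the low mitochondrial share. The differences in runs 3 and 4 were -0.81 and -0.75 for CYP3A4 and -0.43 and -0.51 for CYP2C8. The glutathione transferase GSTA1 had 101 and 93.6 CPM against 186, 102, 222 and 235 CPM, a difference of -0.86 in run 3 but -0.12 in run 4, and its reads may be shared with the near-identical GSTA2. Of this list DESeq2 called CYP2B6 only (adjusted p = 0.0395). CYP1A2 and CYP2D6 were not tested.

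ADH4, an alcohol dehydrogenase of liver that also oxidises retinol, was the enzyme with the largest difference among those set out with their levels here. It had 12.5 and 11.5 CPM with tunicamycin, against 29.2, 48.9, 38.7 and 49.4 CPM with DMSO (log2 -1.78, SE 0.26, adjusted p = 0.282 by edgeR and 1.37e-06 by DESeq2). Within runs the difference was -1.10 and -1.91. Its span overlaps the plus-strand lncRNA ENSG00000246090. The sterol carrier SCP2 had 99.8 and 115 CPM against 156, 183, 172 and 211 CPM (log2 -0.75, SE 0.18), the SLC22 family transporter SLC22A25 21.6 and 25.8 CPM against 43.1, 41.8, 63.7 and 82.0 CPM, and the pyrimidine-degrading enzyme DPYS 18.6 ± 1.14 CPM (SD, n = 2) against 38.3 ± 8.28 CPM (SD, n = 4). All 3 were lower in both runs. The glucuronosyltransferase UGT1A9 had 19.6 and 25.5 CPM against 37.9, 31.0, 70.5 and 66.0 CPM, and it shares exons with the other UGT1A genes.

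Of 13 bile acid synthesis and transport genes, 4 lay below every DMSO culture and 0 above (median log2 -0.36), among them CYP27A1, the sterol hydroxylase of mitochondria, at 30.3 and 33.3 CPM against 42.9, 57.6, 55.9 and 48.1 CPM. Of 12 hepatocyte transcription factors, 4 lay below and 0 above (median log2 -0.30). Their within-run medians were -0.32 in run 3 and -0.05 in run 4. HNF4A, the nuclear receptor that sustains hepatocyte gene expression, had 73.7 and 88.3 CPM against 100.3, 95.7, 137 and 106 CPM (log2 -0.44, SE 0.19, within runs -0.44 and -0.11). NR1I3, the xenobiotic receptor CAR, had 1.36 and 2.33 CPM against 3.98, 4.68, 3.86 and 4.36 CPM. Without the cell filter, 9 cytochrome P450 and conjugation genes, 5 bile acid genes and 7 transcription factors lay below every DMSO culture. The stellate, cholangiocyte and cell cycle levels given above for the same cultures overlapped between groups, and their part in these differences was not tested.

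Secreted plasma proteins, many of which are N-glycosylated, were lower by median (log2 -0.46), but their direction split by run. Of 35 members tested, 4 lay below every DMSO culture (11.4%, against 6.32% of all genes) and 0 above. The median difference was -0.37 in run 3 and 0.46 in run 4, and only 5 members were higher and 6 lower in both runs. TTR, the thyroxine and retinol carrier, had 34.4 and 51.1 CPM with tunicamycin, against 63.6, 52.97, 102.7 and 126 CPM with DMSO, and its within-run differences were -0.85 and -0.05. The copper protein CP had 263 and 298 CPM against 316, 393, 417 and 418 CPM. The list's summed level was 15250 and 21075 CPM against 18060, 15101, 25169 and 34287 CPM, so the groups overlapped. The 13 mitochondrially encoded protein genes also split by run (medians -0.50 and 1.34), with a median mitochondrial share of 16.7% and 7.87% in the tunicamycin cells used, against 14.03% and 2.46% in the DMSO cells used of the same runs, and the part of this in the plasma protein levels was not tested.

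**Figure D5:**
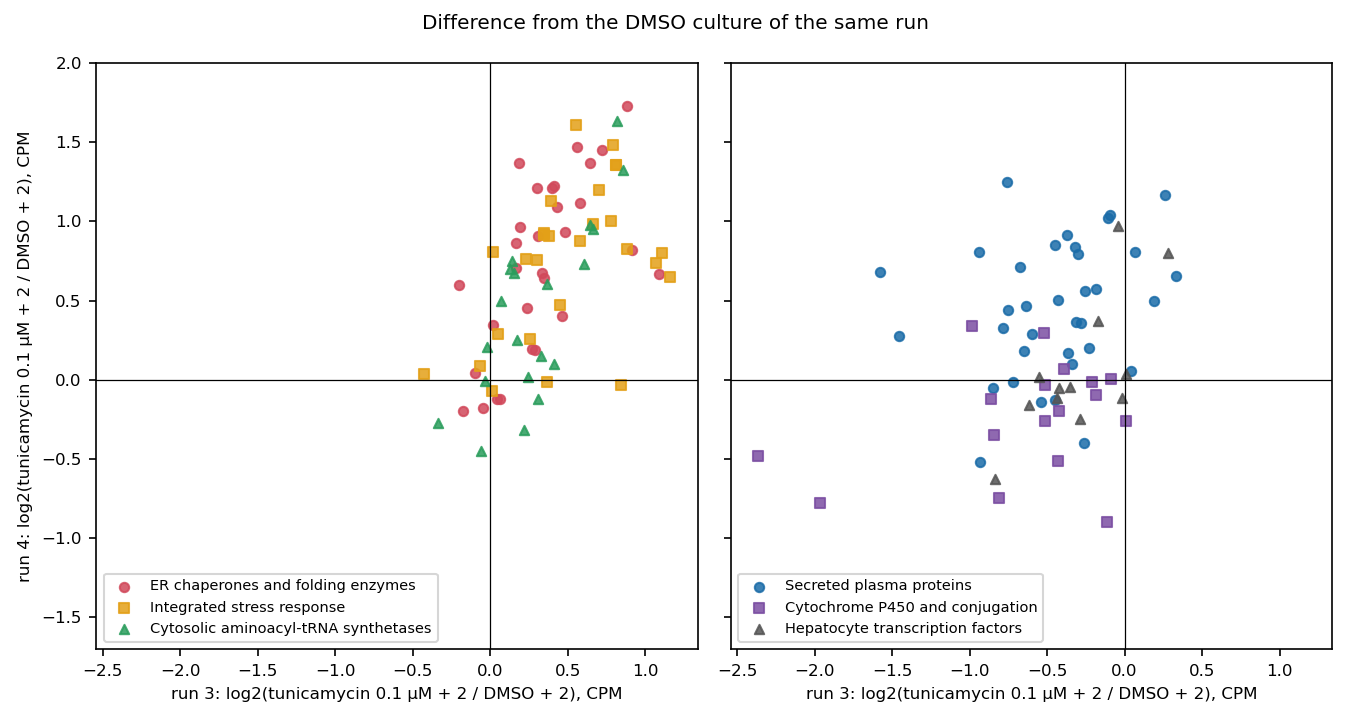
Log2 difference of each list member between the tunicamycin 0.1 µM culture and the DMSO culture of the same run (pseudocount 2 CPM), run 3 on the x axis and run 4 on the y axis, with stress lists at the left and hepatocyte lists at the right. Most chaperone, integrated stress response and synthetase genes lie above 0 on both axes, cytochrome P450 and conjugation genes lie mostly below 0 on both, and plasma protein genes lie mostly below 0 in run 3 but above 0 in run 4.

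Lists of other responses had smaller shares outside the DMSO range than the chaperone, integrated stress response and synthetase lists. Among 18 cytosolic heat shock genes and 16 autophagy genes, 0 lay outside the DMSO range in both tunicamycin cultures (median log2 0.10 and 0.15). Of 16 apoptosis genes, 2 lay above, the BH3-only gene BBC3 (19.0 and 26.3 CPM against 18.3, 14.05, 17.3 and 12.2 CPM) and the survival gene BCL2L1. NRF2 targets had 3 of 22 above and 1 below (median log2 0.00). Of 18 p53 targets, 4 (22.2%) lay above and 0 below (median log2 0.20), among them GADD45A, which is also raised by ATF4, at 76.5 and 61.2 CPM against 53.9, 34.8, 39.6 and 40.9 CPM. The 20 cell cycle genes had a median log2 of 0.83 with 0 outside the DMSO range, and MKI67 was at 310 and 51.9 CPM against 231, 31.3, 69.1 and 20.1 CPM. Both cultures of run 3 were high, with and without tunicamycin, while within runs 17 of the 20 genes were higher with tunicamycin in both (medians 0.43 and 0.46).

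Outside the lists, LURAP1L had 62.0 and 64.5 CPM with tunicamycin, against 32.3, 41.8, 35.8 and 30.1 CPM with DMSO, and it overlaps its antisense gene LURAP1L-AS1, which DESeq2 also called. The kinase gene STK32A had 72.8 and 54.2 CPM against 29.2, 38.9, 32.2 and 36.3 CPM. IGFBP1, a secreted binding protein of insulin-like growth factors and an ATF4 target in liver, had 8.00 and 23.4 CPM against 1.99, 3.804, 3.02 and 6.02 CPM (DESeq2 adjusted p = 0.00816). CLGN, a lectin chaperone of the calnexin family known from testis, had 20.8 and 22.3 CPM against 10.7, 6.15, 9.10 and 8.72 CPM (DESeq2 adjusted p = 0.014). On the lower side DESeq2 called the plasma protein genes SPP2 and HRG and the glucuronosyltransferase gene UGT2B10. These were named after their values were seen.

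Across the doses, 0 of 20471 genes tested (0%) had a trend past the edgeR threshold, with dose scored in equal steps over DMSO, 0.001, 0.01 and 0.1 µM (10 cultures). At an unadjusted p under 0.05, 457 genes sloped upward and 657 downward, and DESeq2 called 16 higher and 19 lower. The smallest adjusted p, 0.100, was that of ENSG00000223786, whose level set only the highest dose apart. The chaperone list had 0 members above every DMSO culture at 0.001 µM, 1 at 0.01 µM and 14 at 0.1 µM, where all genes gave 3.5%, 3.35% and 4.92%. The integrated stress response had 4, 6 and 14 of 27 above, and the synthetases 3, 0 and 9 of 20. Cytochrome P450 and conjugation genes had 4, 5 and 8 of 17 below every DMSO culture, where all genes gave 5.03%, 7.37% and 6.32%. Their median log2 ratios of group means were -0.35, -0.57 and -0.56, so the middle dose was as low as the highest. Secreted plasma proteins had 2, 9 and 4 of 35 below, and bile acid genes 2, 5 and 4 of 13. The dose comparisons share the same DMSO cultures. No tunicamycin dose was run with DMSO runs 5 and 6, which were higher for several hepatocyte genes.

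SLC7A1 had 22.3 ± 1.37 CPM with DMSO (SD, n = 4), 31.8 and 30.5 CPM at 0.001 µM, 29.7 and 29.8 CPM at 0.01 µM and 41.4 and 47.6 CPM at 0.1 µM. Its lowest dose already stood above every DMSO culture, with no further step at the middle dose (trend 0.30 log2 per dose step, SE 0.05, adjusted p = 0.148 by edgeR). ASNS followed at 10.9 ± 1.08 CPM with DMSO (SD, n = 4), 16.6 and 15.6 CPM, 14.2 and 20.5 CPM, and 21.9 and 30.8 CPM (adjusted p = 0.148). HSPA5 had 323 ± 38.6 CPM with DMSO (SD, n = 4), 430 and 374 CPM at 0.001 µM, 381 and 281 CPM at 0.01 µM and 668 and 458 CPM at 0.1 µM. Its middle dose of run 4 lay just below the lowest DMSO culture, that of run 4 (288 CPM). This 0.01 µM culture kept 70 of its 162 cells, with a median mitochondrial share of 21.0% before the filter. MANF and PDIA4 lay within the DMSO range at both lower doses in all 4 cultures except for MANF in run 4 at 0.01 µM. ADH4 had 41.5 ± 9.60 CPM with DMSO (SD, n = 4), 29.1 and 27.7 CPM, 33.1 and 12.2 CPM, and 12.5 and 11.5 CPM, so the run 4 culture at 0.01 µM lay at the level of the highest dose.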

How the data were processed

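The authors deposited 1 matrix of raw UMI counts per gene and cell, with cell and gene tables, made from 8 Parse Evercode sublibraries aligned to GRCh38. The aligner version, annotation and strand setting were not given in the sources used here. Sublibraries are aliquots of pooled cells, so groups were taken from the treatment name of each cell. UMIs of the cells used were summed per treatment name, and 1 DMSO culture with 4 cells was left out. Doublets were not called or removed. Genes kept by filterByExpr were tested with edgeR 4.0.16 (quasi-likelihood, library size the total count, limma 3.58.1, R 4.3.3) at a Benjamini-Hochberg adjusted p of 0.05, and SEs are the log2 fold change over the root of F. The dose trend used scores of equal steps. On simulated data, 2%, 40%, 100% and 100% of 50 genes each changed 1.5, 2, 4 and 8-fold were recovered at 0.1 µM. Changes of 1.5 and 2-fold were thus often missed there, and none between 2 and 4-fold was tried. The simulated counts held no differences between runs, so these rates need not hold for the data. There were 3 false calls with 18080 genes tested, the changed genes among them. Alternatives were DESeq2 1.42.0, TMM scaling, no cell or gene filter, thinned counts, run as a block and each culture left out. Groups, gene lists and tests were chosen with earlier results of these data known. Genes could be named if past the test, named in the paper for this response, among the 4 largest non-overlapping differences of a list from 20 CPM on, among the 10 largest of all genes from 50 CPM on, among the 5 smallest trend p in a direction, or as the drug target. The text gives most of these, and 1 is not reported here. Other list members were named to show a list, after their values were seen. Positions are from GENCODE 44. Python 3.11.15, numpy 2.4.6, pandas 2.3.3 and scipy 1.17.1 were used.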

Additional observations from a re-analysis of the deposited data

Results flagged for a closer look

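Of 85 DMSO groups tested, 6 had a culture whose gap to its nearest neighbour took up more of the range than Dixon's critical value for 4 samples allows, and chance flags about 1 in 20 groups. AFM was at 324.9 CPM in DMSO run 6, with the other DMSO cultures between 198 and 215 CPM. LMF2 was at 21.8 CPM in DMSO run 5, with the others between 6.02 and 6.61 CPM, so its mean over the DMSO cultures rests on that culture. YARS1 was at 43.9 CPM in DMSO run 4 (others 37.6 to 38.4 CPM), MARS1 at 32.4 CPM in DMSO run 6 (29.2 to 29.6 CPM) and PSAT1 at 26.4 CPM in DMSO run 6 (20.5 to 20.8 CPM), and all 3 outlying cultures still lay below both tunicamycin 0.1 µM cultures. SLC7A1 was at 20.3 CPM in DMSO run 5, with the others between 22.8 and 23.3 CPM.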

How the results depend on the processing

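ENSG00000223786 remained past the edgeR threshold at 0.1 µM with each DMSO culture left out, and with either tunicamycin culture left out, where the DMSO cultures alone give the spread and the lone culture is assumed to vary like them. The number of genes higher at 0.1 µM was 76 without the gene filter, 19 with DESeq2 and 1 to 3 with a culture left out, where leaving out the run 4 tunicamycin culture, on that assumption, gave ENSG00000289426 and H1-4 too. The number lower was 48 without the gene filter, 8 with DESeq2 and 0 with any culture left out. With run as a replicate block, 68 of 18577 genes tested were higher and 57 lower, 32 of the 82 named genes among them. These included 9 of 30 chaperones, 9 of 27 integrated stress response genes and 5 of 20 synthetases, all higher, and 3 of 17 cytochrome P450 and conjugation genes, all lower, none of which passed edgeR on the same genes without the block. In the 0.1 µM fit with the block, a run with DMSO alone added nothing to a gene's difference or its own spread. Both therefore rested on the 2 same-run pairs. Same-run cultures deviated together (r = 0.44 to 0.68 over 8021 genes), but there were only 2 pairs and no source says what a run is, so the pairing is a hint from the data. For the dose trend, genes higher numbered 1 without the gene filter, 16 with DESeq2, 3 with dose on a linear scale (ENSG00000223786, WARS1 and AARS1) and 0 to 1 with a culture left out, and genes lower numbered 3 with thinned counts, 1 with the block, 19 with DESeq2 and 0 to 1 with a culture left out (ADH4 without the run 3 culture at 0.01 µM). With DMSO of runs 3 and 4 only, chosen after seeing the data, 1 gene was higher, 0 were lower and the trend gave 0. Of the 82 named genes, 76 kept their sign throughout. On thinned counts the log2 fold change was 0.034 for CASP8, -0.077 for SQLE, -0.18 for SELENOS and -0.065 for SYVN1. With a culture left out it ran over -0.14 to 0.66 for SYVN1, -0.13 to 0.019 for CASP8, -0.052 to 0.63 for XBP1 and -0.063 to 0.33 for SQSTM1. The mean share of tunicamycin cells above 2 times the DMSO mean was 11.1% for CANX, 14.3% for P4HB and 17.4% for PDIA3 without thinning, against 16.0%, 27.1% and 29.2% at 5000 UMIs. The causes of these differences were not tested.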
